A study of Sorghum bicolor with 64 samples.

Results

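The comparison described here is between the 2 organs of intact sorghum (*Sorghum bicolor*) plants, the stem internode and the leaf. Its members are the 27 intact samples with a TPM column, 15 stems and 12 leaves, of 53 samples with a column and 64 described in all; 5 further intact samples are described but not analysed here. The plants were near-isogenic lines in the Tx623 background that differ at the *Dry Stalk* (*D*) locus and were grown in 1 field. The *dd* plants carry a truncated *SbNAC074A* and have juicy stems, and the *DD* plants carry the functional gene and have dry stems. Stem tissue came from the fourth internode from the top after its green outer layer had been shaved off, so that mainly inner tissue was measured, and leaf tissue from the middle of the second leaf, with the flag leaf not counted. All 27 samples came from plants with the head left on, sampled 3 or 10 d after heads were cut at anthesis in the treated plants of the study. Stems numbered 4 *dd* and 4 *DD* at 3 d and 4 *dd* and 3 *DD* at 10 d, and leaves numbered 3 in each of the same 4 combinations. Whether both organs were ever taken from a single plant is not given in the sources used here.

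A sorghum leaf fixes carbon by the C4 route, in which mesophyll cells make a C4 acid and bundle sheath cells release its CO2 to the Calvin cycle. The sucrose made in the leaf is loaded into the phloem and carried to sinks. The internode is such a sink: its pith parenchyma stores sucrose, while its vascular bundles and fibres build thick walls of cellulose, xylan and lignin.

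Expression was measured by mRNA sequencing and deposited as TPM, which scales each library to 1 fixed total after dividing by gene length. There are 16942 genes in the table of stems and 16386 in that of leaves, each gene exceeding 3 TPM in at least 2 libraries of that organ, decapitated plants included. The comparison used the 14496 genes in both tables, and 2446 stem-table and 1890 leaf-table genes are described apart. Differences are given as stem minus leaf on the scale of log2(TPM + 1), which understates the change of low genes, with genotype and day as covariates and the standard error from limma. A gene was called at a Benjamini-Hochberg adjusted p under 0.01 and a difference of at least 1, that is 2-fold. Read depth cannot be recovered from TPM, and the replicate libraries alone show how precise a value is. Since each table shares out a fixed total, a level is a share of that organ's mRNA, and in these bulk samples fewer cells of a type and less RNA per cell cannot be told apart.

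The organ was the main source of variation. On the 500 most variable genes the first principal component held 93.9% of the variance and separated all 15 stems (43.3 to 56.4) from all 12 leaves (-68.8 to -59.1). Of the 14496 genes, 3668 (25.3%) were higher and 2233 (15.4%) lower in stems than in leaves, and 5878 of these 5901 kept one sign in all 4 combinations of genotype and day. All stems lay above all leaves for 29.8% of genes and below them for 14.8%. Differences of at least 16-fold were more often towards the leaf, with 136 genes higher and 335 lower in stems. The median gene stood 0.40 above 0 on the log2 scale, so that values near 0.40 are those of a typical gene. Scaling the libraries by the median of ratios instead moved that median by -0.38 and gave 2259 higher and 2848 lower genes, a share of higher calls of 44.2% in place of 62.2%. The *dd* 10 d stem libraries 3 and 4 differed from the other stems in *SbSUT1*, *SbSWEET4A* and a small heat shock protein gene described below, and without them 3781 genes were higher and 2206 lower. On the first principal component these libraries stood at 50.2 and 52.2, inside the range of the other stems. The counts of small differences depend on the scaling, and each gene list is read against the median of 0.40. As for the labels, the sum of the light reactions was higher in every leaf than in every stem, and that of the wall genes higher in every stem than in every leaf. On every list below, the members passing in each direction are to be set beside 25.3% and 15.4% of all genes. Those counted under median-of-ratios scaling are instead to be set beside 2259 higher and 2848 lower of the 14496 genes.

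**Figure D1:**
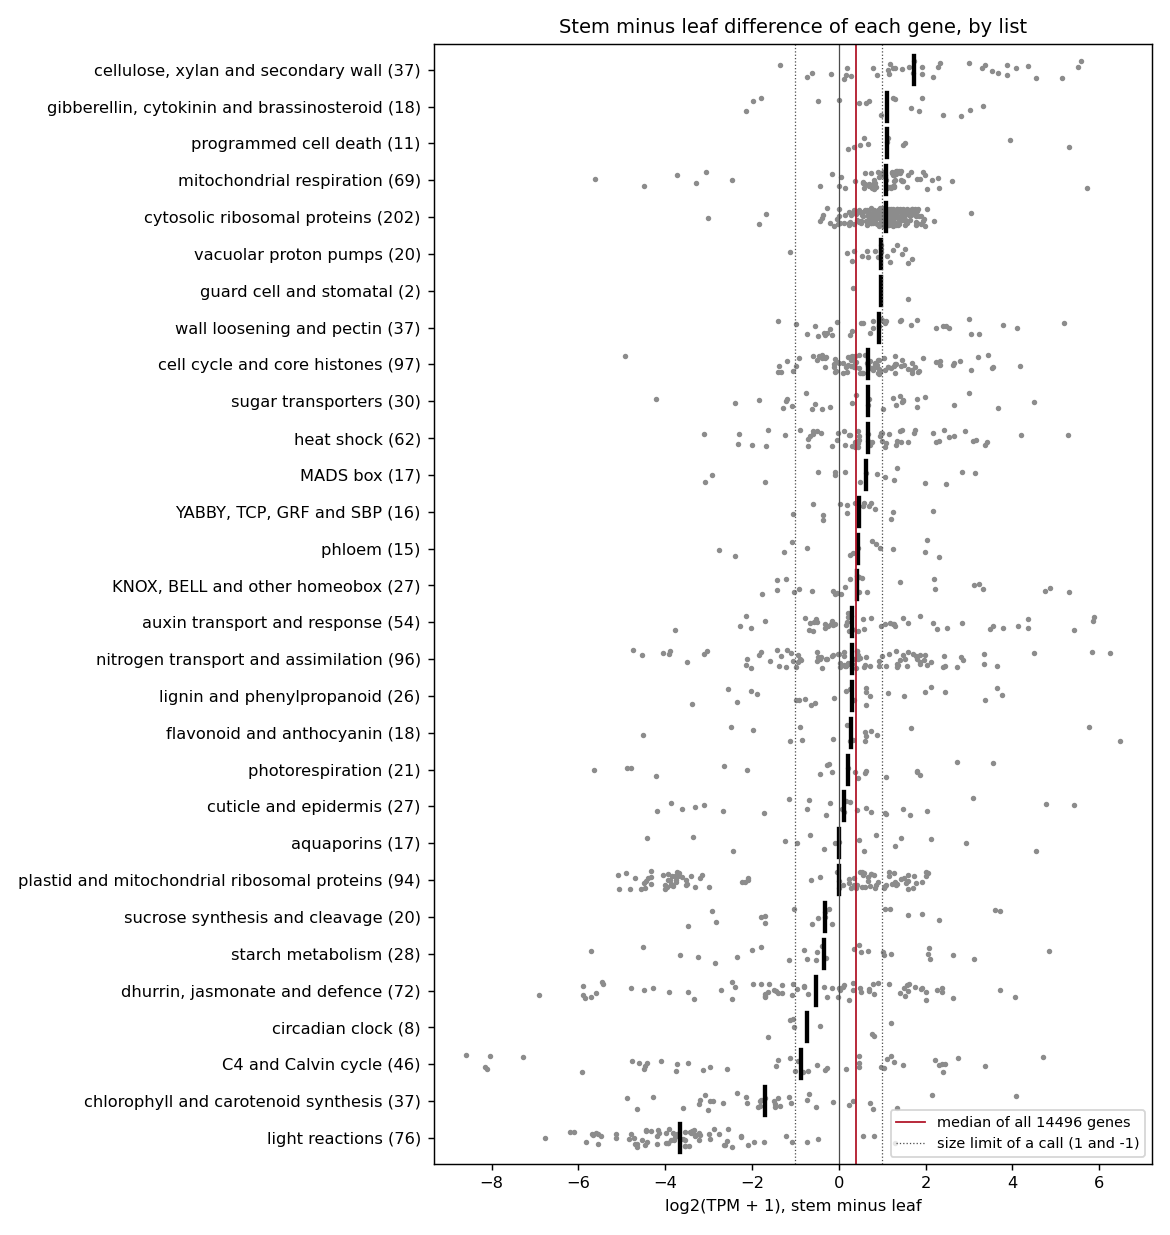
Stem minus leaf difference in log2(TPM + 1) of every gene in both tables, for 30 lists of genes drawn from the deposited descriptions, with the number of genes in parentheses. Each grey point is a gene, the black bar is the list's median, dotted lines mark the size limit of a call at 1 and -1, and the red line is the median of all 14496 genes (0.40); the light reactions lie lowest, with a median of -3.66, and the cellulose, xylan and secondary wall list highest, with a median of 1.73.

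The light reactions had the lowest median of the 30 lists. Of 76 genes of the light reactions in both tables, 71 were lower in stems, 1 was higher and 4 did not pass, with a median of -3.66, against 0.40 for all genes. The sum of the list was 4251 to 13417 TPM in stems, against 62878 to 109970 TPM in leaves, so that no stem reached the lowest leaf, although no stem was near 0. A further 13 members were in the leaf table alone and none in the stem table alone. Among the deepest differences was *psbS* (*Sobic.003G370000*), a photosystem II protein needed to shed excess light as heat, which lay between 20.2 and 189.6 TPM in stems (median 50.97), against 2517 to 5768 TPM in leaves (median 4065). Its difference was -6.19 ± 0.21 (adjusted p = 1.6e-20, limma), and all stems were below all leaves. The Rieske iron-sulfur subunit of the cytochrome b6-f complex (*Sobic.009G143100*) differed by -6.09 ± 0.12 and a light-harvesting complex I protein (*Sobic.004G308700*) by -6.77 ± 0.14. The most abundant member, *psbR* of photosystem II (*Sobic.007G071500*), averaged 654 ± 122 TPM in stems and 9412 ± 927 TPM in leaves. The single member higher in stems was a ferredoxin-NADP reductase described as a root isozyme (*Sobic.001G067100*), a form that works in tissues without photosynthesis. It had 63.3 ± 27.3 TPM in stems and 24.9 ± 8.29 TPM in leaves, a difference of 1.30 ± 0.18, which was 0.91 and no longer called under median-of-ratios scaling. Gene models such as *Sobic.003G172966* (*ndhK*, -5.69) carry the names of proteins that chloroplast DNA encodes, and reads of the chloroplast copy may be counted there, so that their values are uncertain.

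In the C4 and Calvin cycle, the leaf enzymes were far lower in stems, while other members of the same families were higher there. Of 46 genes in both tables, 13 were higher in stems, 22 were lower and 11 did not pass, with a median of -0.88. Phosphoenolpyruvate (PEP) carboxylase, which carries out the first fixation of CO2 in C4 leaves, had its main leaf gene *Sobic.010G160700* at 6.69 to 62.8 TPM in stems (median 14.9), against 4277 to 9639 TPM in leaves (median 6180.0). This was the lowest difference among the described genes called, at -8.58 ± 0.23 (adjusted p = 9.6e-23, limma). Carbonic anhydrase *Sobic.003G234200*, which supplies bicarbonate to that enzyme, lay between 4.67 and 39.2 TPM in stems (median 9.38), against 2176 to 4765 TPM in leaves (median 3419.5). The malic enzyme *Sobic.003G036200*, of the family that releases CO2 from malate, averaged 8.32 and 2278 TPM in stems and leaves. Pyruvate phosphate dikinase *Sobic.009G132900*, which regenerates PEP, averaged 50.9 ± 29.7 TPM in stems and 12228 ± 2518 TPM in leaves. All stems were below all leaves for each of these. The members of these families differed in direction. Of 5 PEP carboxylases, 3 were higher in stems, 1 was lower and 1 did not pass, and *Sobic.004G106900* had 432 ± 69.9 TPM in stems and 42.9 ± 17.2 TPM in leaves, a difference of 3.37 ± 0.13. Of 6 malic enzymes in both tables, 5 were higher and 1 was lower, with *Sobic.009G108700* at 999 and 184 TPM in stems and leaves. A gene described as the Calvin cycle protein CP12, a small regulator of the cycle (*Sobic.001G396300*), was also higher, with 927 ± 175 TPM in stems and 40.7 ± 27.8 TPM in leaves.

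**Figure D2:**
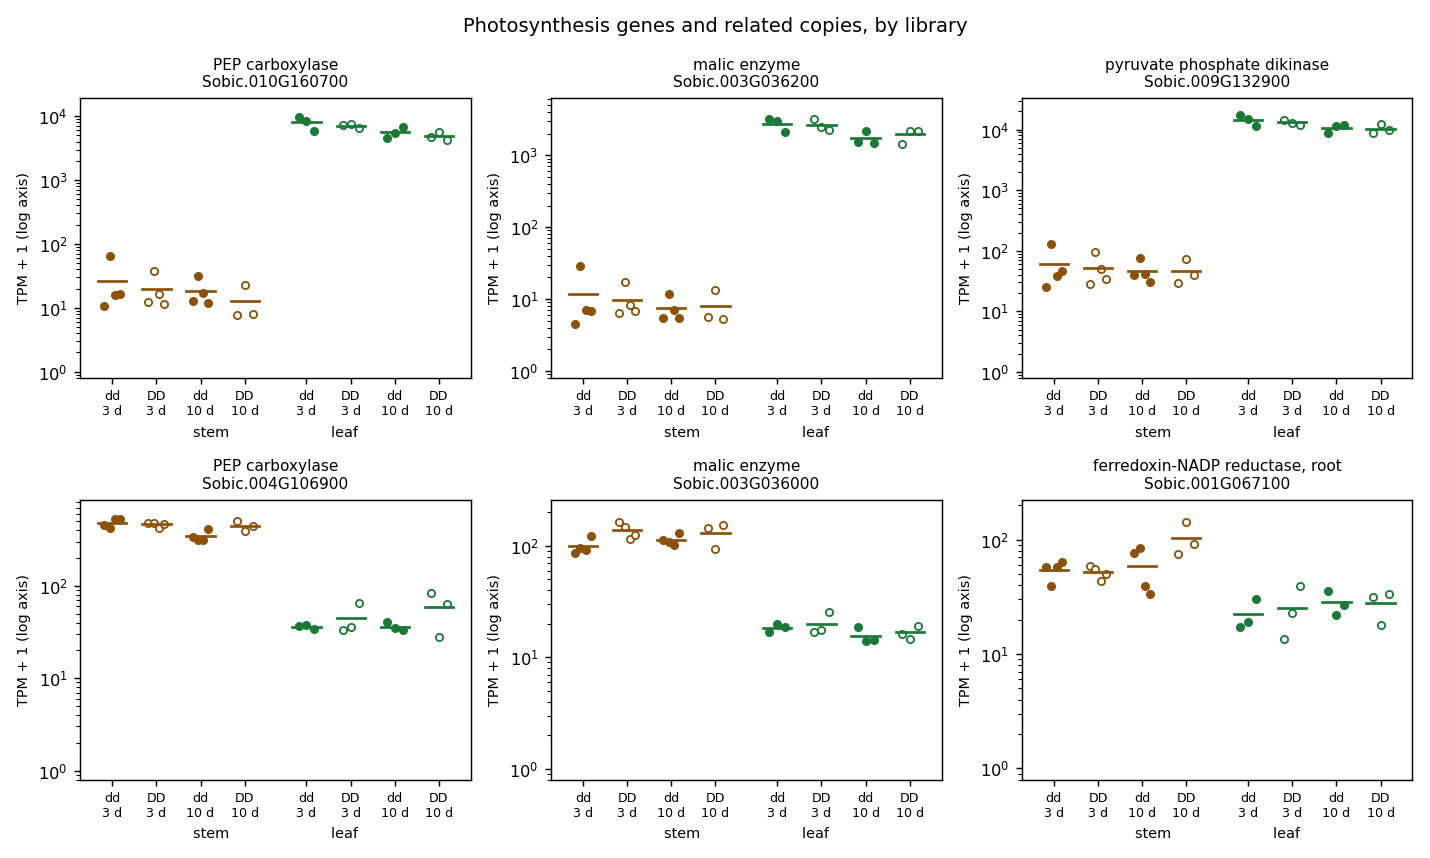
TPM + 1 on a log axis for 6 photosynthesis-related genes in each of the 15 stem (brown, left) and 12 leaf (green, right) libraries, by genotype and day. Filled circles are *dd*, open circles *DD*, and bars the group means; in the upper row all stems lie below all leaves, and in the lower row PEP carboxylase *Sobic.004G106900* (3.37 ± 0.13) and malic enzyme *Sobic.003G036000* (2.76 ± 0.09) lie above all leaves while the ferredoxin-NADP reductase overlaps.

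Pigment synthesis followed the light reactions in part. Of 37 genes of chlorophyll and carotenoid synthesis, 3 were higher in stems, 26 were lower and 8 did not pass (median -1.70). Violaxanthin de-epoxidase (*Sobic.006G049200*), the light-responsive step of the xanthophyll cycle, averaged 1.66 and 76.8 TPM in stems and leaves, a difference of -4.89 ± 0.11. The 3 genes higher in stems included both protochlorophyllide reductases, the light-dependent step of chlorophyll synthesis. *Sobic.006G268200* had 34.1 to 614 TPM in stems (median 169), against 0.418 to 130.2 TPM in leaves (median 10.998), and the ranges overlapped. For *Sobic.001G206200* the difference of 1.34 ± 0.23 was 0.93, and no longer called, under median-of-ratios scaling. In photorespiration, which salvages the product of Rubisco's oxygenation, 21 genes split into 6 higher, 6 lower and 9 that did not pass (median 0.22). Hydroxypyruvate reductase *Sobic.004G001300* differed by -4.22 ± 0.20 and glycerate kinase *Sobic.009G004100* by -4.87 ± 0.12, whereas a glycine cleavage system H protein (*Sobic.004G055700*) was higher in stems by 3.55 ± 0.10.

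Starch genes differed in both directions. Of 28 starch genes in both tables, 9 were higher in stems, 9 were lower and 10 did not pass (median -0.34, below the 0.40 of all genes). ADP-glucose pyrophosphorylase (AGPase), which makes the glucosyl donor for starch, did so within both of its subunit types. The large subunit 1 gene *Sobic.001G100000* lay between 9.96 and 24.9 TPM in stems (median 13.3), against 266 to 402 TPM in leaves (median 328). The small subunit b *Sobic.002G160400* lay the other way, between 69.6 and 185 TPM in stems (median 111), against 1.88 to 5.32 TPM in leaves (median 3.21). For neither did the organs overlap, and the differences were -4.51 ± 0.11 and 4.85 ± 0.14 (adjusted p = 1.1e-23 and 4.5e-22, limma). Small subunit a (*Sobic.007G101500*) differed by -1.79 ± 0.08. Both genes described as large subunit 2 were higher in stems, *Sobic.009G245000*, at 955 ± 435 TPM in stems and 222 ± 111 TPM in leaves, by 2.11 ± 0.24 and *Sobic.003G230500* by 2.05 ± 0.15. Of the beta-amylases, which release maltose from starch, *Sobic.002G329500* averaged 4.79 ± 2.10 TPM in stems and 457 ± 388 TPM in leaves, and *Sobic.001G226600* averaged 47.1 ± 30.5 TPM in stems and 4.69 ± 4.30 TPM in leaves. Cytosolic starch phosphorylase b (*Sobic.003G358600*) was higher in stems by 2.64 ± 0.17 and branching enzyme 2.2a (*Sobic.010G273800*) by 2.09 ± 0.14. Isoamylase 1 (*Sobic.007G204600*), isoamylase 3 (*Sobic.002G233600*) and starch synthase 1 (*Sobic.010G047700*) differed by 0.45, 0.66 and -0.50 and were not called. Starch phosphorylase a (*Sobic.001G083900*) and glucan water dikinase (*Sobic.010G143500*), at 1.03 and 1.20, were called, but were at 0.62 and 0.80, below the limit, under median-of-ratios scaling. The phosphorylase also fell short when any of 6 of the 27 libraries was left out, namely *dd* 3 d stem replicates 3 and 4, *DD* 3 d and 10 d stem replicate 1, *dd* 3 d leaf replicate 1 and *DD* 3 d leaf replicate 3.

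Sucrose synthase 2 was higher in stems, whereas the final enzymes of sucrose synthesis were lower. Of 20 genes, 7 were higher in stems, 7 were lower and 6 did not pass, and 4 more, 3 of them invertases, were in the leaf table alone. Sucrose synthase 2 (*Sobic.001G378300*), which splits sucrose into UDP-glucose and fructose, lay between 176 and 265 TPM in stems (median 219.1), against 11.2 to 23.1 TPM in leaves (median 17.01), with no overlap and a difference of 3.60 ± 0.09 (adjusted p = 3.7e-23, limma). Hexokinase *Sobic.003G035500* and fructokinase *Sobic.007G014700* were higher in stems by 3.71 ± 0.09 and 2.32 ± 0.14. Sucrose-phosphate synthase (*Sobic.003G403300*) and sucrose-phosphatase (*Sobic.004G151800*), the last steps of sucrose synthesis, averaged 131 and 119 TPM in stems, against 461 and 388 TPM in leaves, with differences of -1.78 ± 0.13 and -1.69 ± 0.06. The neutral invertase *SbCIN5* (*Sobic.004G163800*) differed by -1.71 ± 0.05.

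Sugar carriers divided by member. Of 30 sugar transporter genes in both tables, 14 were higher in stems, 7 were lower and 9 did not pass (median 0.68). Under median-of-ratios scaling 10 were higher and 9 lower. *SbSWEET13A* (*Sobic.008G094000*), of the SWEET family of sugar exporters, had 159.9 to 573 TPM in stems (median 279), against 1060.3 to 1875 TPM in leaves (median 1584). It was the most abundant member, no stem reached the lowest leaf, and the difference was -2.39 ± 0.13 (adjusted p = 9.1e-16, limma). *SbSWEET4A* (*Sobic.004G136600*) lay the other way, between 127 and 519.7 TPM in stems (median 415), against 34.1 to 105 TPM in leaves (median 57.7). Its relative *Sobic.004G133500* was higher in stems by 4.50 ± 0.29 and *SbSWEET1A* (*Sobic.003G377700*) by 1.79 ± 0.23, and *SbSWEET3A* (*Sobic.009G080900*) differed by -0.56 ± 0.35 and was not called. Of 16 SWEET genes, 10 were in both tables, of which 3 were higher and 4 lower, 4 were in the stem table alone and 2 in the leaf table alone. *SbSWEET16* (*Sobic.001G377600*) was among those in the stem table alone, at 22.4 ± 16.04 TPM. The 3 SUT genes, proton-coupled sucrose importers, also split. *SbSUT1* (*Sobic.001G488700*) had 70.8 to 346 TPM in stems (median 209), against 297 to 580.4 TPM in leaves (median 426), so that the ranges overlapped. Its difference of -1.08 ± 0.12 fell short of the limit in *DD* plants alone (-0.90) and at 3 d alone (-0.97). It also fell short without the *dd* 10 d stem libraries 3 and 4 (-0.92), which differed from the other stems in this gene itself. *Sobic.004G353600* and *Sobic.008G193300* were higher in stems by 1.98 ± 0.13 and 1.26 ± 0.09. Among the other carriers, a gene described as monosaccharide-sensing protein 1 (*Sobic.001G312900*) averaged 492.8 ± 73.5 TPM in stems and 37.7 ± 5.74 TPM in leaves. The gene described as monosaccharide-sensing protein 2 (*Sobic.004G099300*) averaged 309.6 ± 115 TPM in stems and 36.2 ± 10.0 TPM in leaves. The plastid glucose and glucose-6-phosphate carriers *SbpGlcT* (*Sobic.003G084000*) and *SbGPT1* (*Sobic.007G065500*) were higher in stems by 1.40 ± 0.08 and 1.81 ± 0.12. Under median-of-ratios scaling *SbpGlcT*, at 0.99, was no longer called. In the phloem list, of 15 genes 4 were higher in stems, 4 were lower and 7 did not pass, with a sum of 1177.3 to 2100.4 TPM in stems, against 1846 to 2902 TPM in leaves.

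**Figure D3:**
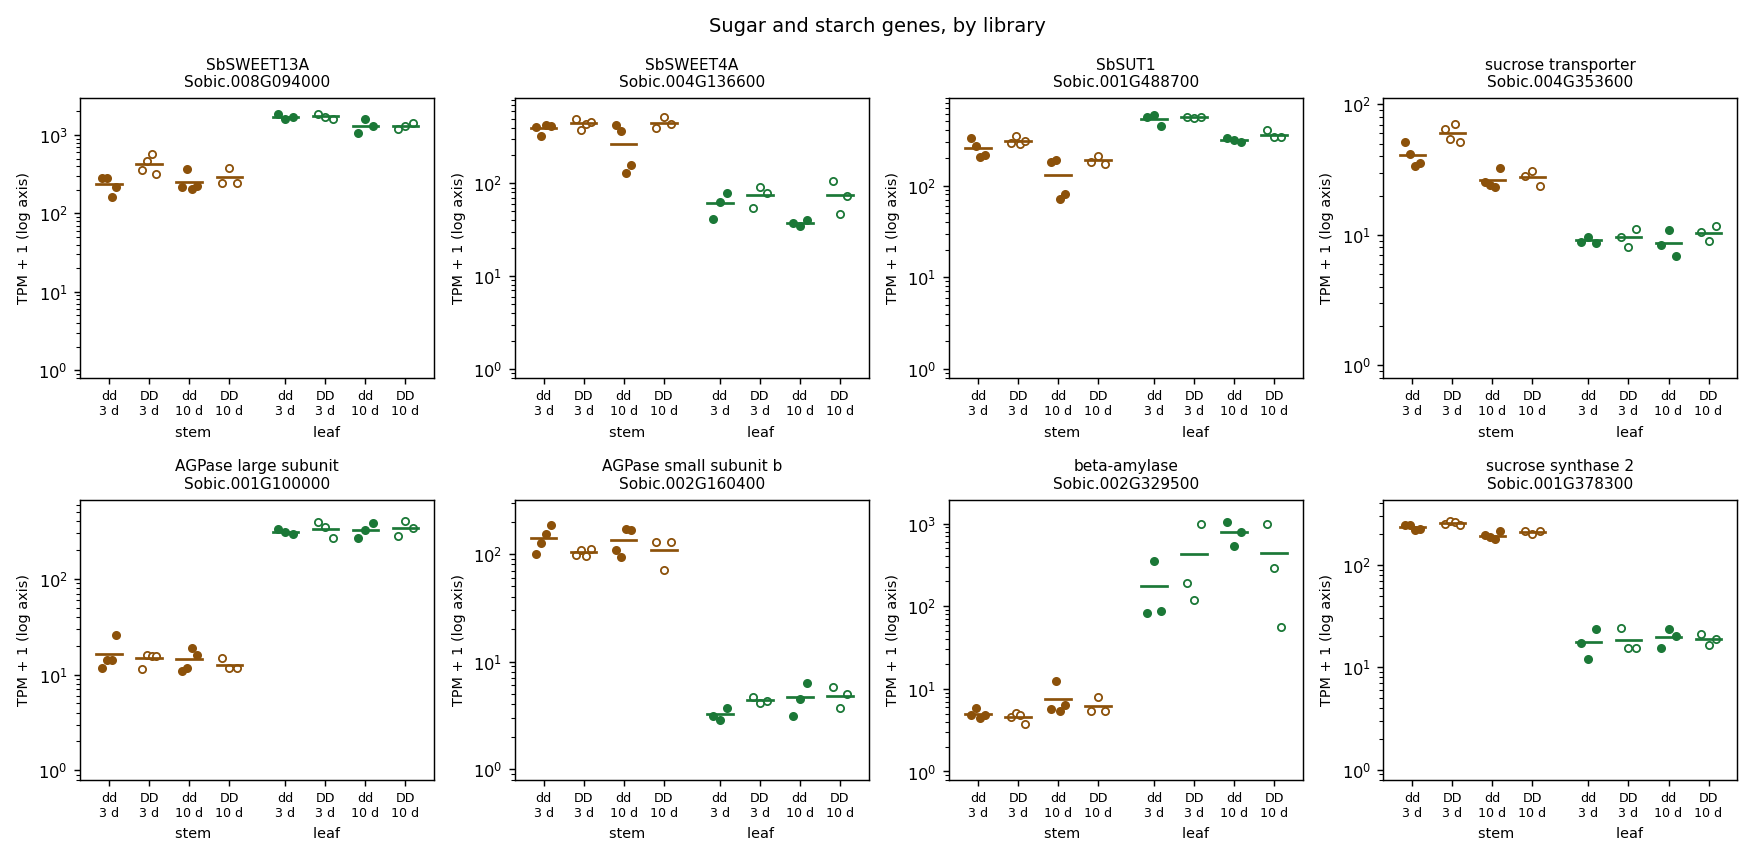
TPM + 1 on a log axis for 8 sugar and starch genes in each stem (brown, left) and leaf (green, right) library, with filled circles for *dd*, open circles for *DD* and bars for group means. *SbSWEET13A*, the AGPase large subunit and the beta-amylase lie lower in all stems, *SbSWEET4A*, the sucrose transporter *Sobic.004G353600*, AGPase small subunit b and sucrose synthase 2 higher in all stems, and *SbSUT1* overlaps.

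Genes of wall synthesis were mostly higher in stems. Of 37 genes of cellulose, xylan and the secondary wall in both tables, 27 were higher in stems, 1 was lower and 9 did not pass, with a median of 1.73. Another 39 members were in the stem table alone and 2 in the leaf table alone. The list summed to 2049 to 4456 TPM in stems, against 352 to 476 TPM in leaves, with no overlap. A cellulose synthase domain gene (*Sobic.002G118700*) lay between 229 and 1132 TPM in stems (median 496), against 9.23 to 22.9 TPM in leaves (median 11.9). A glucuronosyltransferase that decorates xylan (*Sobic.001G479800*) lay between 97.9 and 229.8 TPM in stems (median 158), against 1.45 to 3.41 TPM in leaves (median 2.23). Their differences were 5.15 ± 0.19 and 5.57 ± 0.10 (adjusted p = 1.5e-19 and 1.3e-26, limma), and all stems were above all leaves. A fasciclin-domain protein (*Sobic.009G232200*) was higher by 5.52 ± 0.30 and a COBRA-like protein (*Sobic.001G086200*), of a family that acts in cellulose assembly, by 3.68 ± 0.10. *WALLS ARE THIN 1* (*Sobic.007G166900*), which in *Arabidopsis* is needed for thick fibre walls, averaged 1471 ± 468 TPM in stems and 6.76 ± 7.08 TPM in leaves. Of 37 genes of wall loosening and pectin, 16 were higher in stems, 1 was lower and 20 did not pass (median 0.92), and 37 more were in the stem table alone. A xyloglucan endotransglucosylase (*Sobic.010G246600*), which recuts wall xyloglucan, differed by 5.19 ± 0.26.

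Lignin and phenylpropanoid genes were mixed: of 26, 8 were higher in stems, 5 were lower and 13 did not pass, with a median of 0.30, below that of all genes. Under median-of-ratios scaling 6 were higher and 8 lower. The balance of calls over all genes turned round in the same way (2259 higher, 2848 lower). The list's median was then -0.02, against 0.01 for all genes. At the entry of the pathway, phenylalanine/tyrosine ammonia-lyase *Sobic.004G220300* had 343 to 8077 TPM in stems (median 1558), against 1.52 to 28.5 TPM in leaves (median 6.54), and its difference of 7.45 ± 0.36 was among the 10 highest called. Another gene of that description, *Sobic.006G148800*, had the highest mean of all genes in the stem table alone, 450.0 ± 459 TPM, with single stems between 66.2 and 1879 TPM. 4-Coumarate-CoA ligase *Sobic.004G062500* and a hydroxycinnamoyltransferase (*Sobic.004G212300*) were higher in stems by 3.65 ± 0.25 and 3.76 ± 0.11, whereas a cinnamyl-alcohol dehydrogenase relative (*Sobic.004G130800*) and another hydroxycinnamoyltransferase (*Sobic.007G142200*) differed by -3.39 ± 0.18 and -2.56 ± 0.17. Cinnamate 4-hydroxylase (*Sobic.002G126600*) differed by -0.92 ± 0.19 and was not called, but was called lower under median-of-ratios scaling (-1.33), under quantile normalization (-1.03), at 10 d alone (-1.30) and without *dd* 3 d leaf replicate 1 or *DD* 3 d leaf replicate 2.

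Among growth regulators, auxin carriers showed the widest differences. Of 54 auxin genes in both tables, 21 were higher in stems, 5 were lower and 28 did not pass (median 0.31), and 33 and 15 more were in the stem and leaf table alone. An auxin importer of the AUX family (*Sobic.003G361300*) lay between 404 and 1001 TPM in stems (median 644), against 3.47 to 24.1 TPM in leaves (median 10.3). An auxin exporter of the PIN family (*Sobic.010G095100*) had 169 ± 82.9 TPM in stems and 1.81 ± 0.877 TPM in leaves and an AUX/IAA repressor (*Sobic.001G094800*) 534 ± 149 TPM in stems and 11.5 ± 4.17 TPM in leaves. Their differences were 5.87 ± 0.17, 5.85 ± 0.18 and 5.43 ± 0.16, and no stem overlapped with a leaf. A GH3-type enzyme that conjugates auxin to amino acids (*Sobic.008G015100*) was lower in stems, with a difference of -3.76 ± 0.11. Of 18 genes of gibberellin, cytokinin and brassinosteroid, 9 were higher in stems, 3 were lower and 6 did not pass (median 1.11), with a gibberellin 20-oxidase (*Sobic.001G005300*) of the gibberellin synthesis route at 3.02 ± 0.31 and a relative of the DELLA growth repressors (*Sobic.001G120900*) at 2.81 ± 0.10. All 3 genes lower in stems were described as cytokinin riboside 5'-monophosphate phosphoribohydrolases, which activate cytokinin, among them *Sobic.003G202200* (-2.13 ± 0.17).

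**Figure D4:**
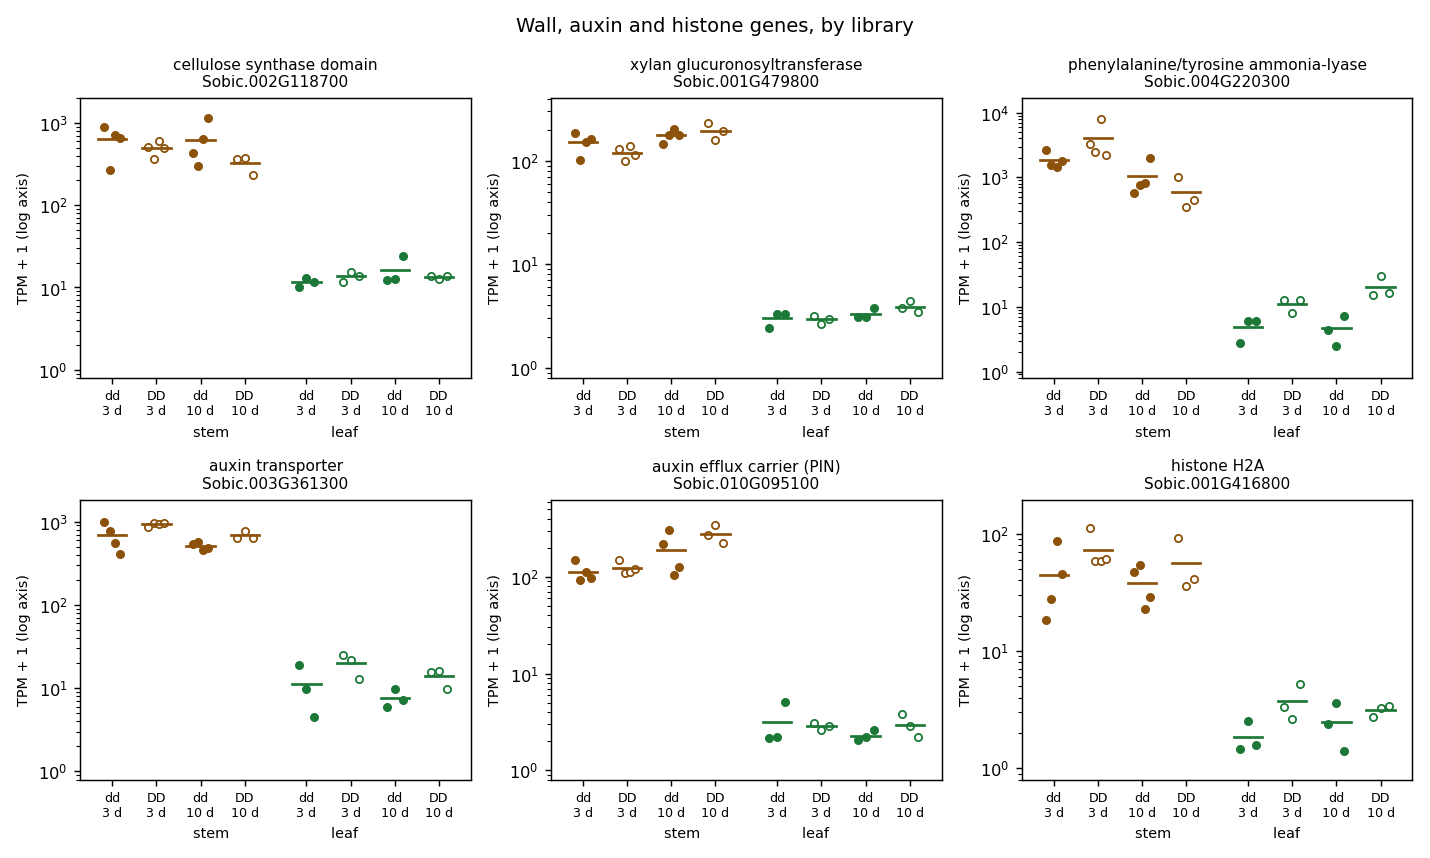
TPM + 1 on a log axis for 6 wall, auxin and histone genes in each stem (brown, left) and leaf (green, right) library, with filled circles for *dd*, open circles for *DD* and bars for group means. All stems lie above all leaves in each, and the differences are 5.15, 5.57, 7.45, 5.87, 5.85 and 4.18 in the order of the panels (*Sobic.002G118700*, *Sobic.001G479800*, *Sobic.004G220300*, *Sobic.003G361300*, *Sobic.010G095100* and *Sobic.001G416800*).

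Several homeobox genes were in the stem table alone. Of the 27 in both tables, 9 were higher in stems, 5 were lower and 13 did not pass (median 0.42), while 16 others were in the stem table alone and 12 in the leaf table alone. Of 21 genes of the TALE family, which holds the KNOX and BELL factors that act in meristems and stems, 9 were in the stem table alone and 2 in the leaf table alone. Of the 10 TALE genes in both tables, 1 was higher in stems, 3 were lower and 6 did not pass (median 0.01). Of all 18832 genes in either table, 2446 were in the stem table alone and 1890 in the leaf table alone. A KNOTTED-like gene (*Sobic.001G106200*), in the stem table alone, averaged 299 ± 80.7 TPM, and *Sobic.002G023900*, also in that table alone, 239 ± 41.6 TPM. A homeobox gene with a START domain (*Sobic.001G157400*) lay between 314 and 699 TPM in stems (median 426), against 9.005 to 18.9 TPM in leaves (median 14.8), and the mini zinc finger gene *SbMIF* (*Sobic.008G020700*) between 158 and 372 TPM in stems (median 315), against 4.26 to 8.84 TPM in leaves (median 5.99). Of 17 MADS box genes, 7 were higher in stems, 3 were lower and 7 did not pass, with 4 higher under median-of-ratios scaling. *Sobic.002G010100* averaged 1335 ± 257 TPM in stems and 173 ± 93.3 TPM in leaves, whereas both genes described as SOC1, a promoter of flowering in *Arabidopsis*, were lower in stems (*Sobic.001G314400*, -3.09 ± 0.14, and *Sobic.001G526800*, -2.91 ± 0.12).

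Genes of protein synthesis, respiration and vacuole acidification stood above the typical gene. Of 202 cytosolic ribosomal protein genes, 115 were higher in stems, 3 were lower and 84 did not pass, with a median of 1.08 and a sum of 44957 to 70988 TPM in stems, against 18481 to 38216 TPM in leaves. Because most differences lay near 1, the number higher dropped to 51 under median-of-ratios scaling, under which the median was 0.68. The ribosomal proteins of plastids and mitochondria parted: of 94 genes, 23 were higher in stems, 43 were lower and 28 did not pass (median 0.01), with 13 higher and 44 lower under median-of-ratios scaling. A plastid ribosomal protein L35 (*Sobic.010G208000*) differed by -5.08 ± 0.12. Of 69 genes of mitochondrial respiration, 39 were higher in stems, 6 were lower and 24 did not pass (median 1.08), and 18 were higher under median-of-ratios scaling. The members that were lower included ATP synthase subunits b (*Sobic.001G417200*, -4.48), delta (*Sobic.004G235200*, -3.73) and gamma (*Sobic.002G316700*, -5.61). Their orthology names are of the bacterial type that plastids use, so that the list may hold plastid genes and its lower count is not of mitochondria alone. All 5 ATP synthase genes with names of that type in both tables were lower in stems. An NADP isocitrate dehydrogenase (*Sobic.003G241500*) averaged 1258 ± 241 TPM in stems and 329.9 ± 98.9 TPM in leaves. Of 20 vacuolar proton pump genes, 8 were higher in stems, 1 was lower and 11 did not pass (median 0.97). Under median-of-ratios scaling the median was 0.56 and 4 were higher. V-ATPase subunits A (*Sobic.004G060100*) and B (*Sobic.010G172500*), which hydrolyse ATP, were higher by 1.60 ± 0.09 and 1.46 ± 0.09.

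Some markers of dividing cells were higher in stems. Of 97 cell cycle and core histone genes, 33 were higher in stems, 6 were lower and 58 did not pass (median 0.68), with 47 more in the stem table alone and 5 in the leaf table alone. Histone H2A *Sobic.001G416800* averaged 51.6 ± 26.9 TPM in stems and 1.78 ± 1.07 TPM in leaves and histone H2B *Sobic.004G265400* 50.8 ± 24.6 TPM in stems and 3.18 ± 1.197 TPM in leaves. The most abundant members, a histone H3 gene (*Sobic.001G350501*) and a histone H1 gene (*Sobic.006G186700*), differed by 0.46 and -0.38 and were not called. Of 62 heat shock genes, 25 were higher in stems, 7 were lower and 30 did not pass (median 0.68). Under median-of-ratios scaling 17 were higher and 12 lower. Stems varied widely in the list's sum, with 8249 to 22365 TPM in stems, against 4954 to 10318 TPM in leaves. A class II small heat shock protein (*Sobic.003G039400*) had 119 to 1854 TPM in stems (median 339), against 2.36 to 75.9 TPM in leaves (median 7.69).

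Epidermal and stomatal markers gave no single direction, although the outer layer of the stem had been removed. Of 27 cuticle and epidermis genes, 8 were higher in stems, 8 were lower and 11 did not pass (median 0.12). Under median-of-ratios scaling 6 were higher and 9 lower. Of 8 genes in both tables described as probable lipid transfer proteins, 5 were higher in stems and 0 lower. That description is shared by 77 genes, and whether they mark the epidermis was not tested. The members higher in stems were led by lipid transfer proteins, with *Sobic.005G096101* at 1623 ± 747 TPM in stems and 35.04 ± 12.5 TPM in leaves, and those lower by 3-ketoacyl-CoA synthases, which lengthen the fatty acids of wax, with *Sobic.001G482300* at 1.53 ± 2.61 TPM in stems and 34.4 ± 16.7 TPM in leaves. Of 6 stomatal genes only 2 were in both tables, of which 1 was higher in stems and 1 did not pass. Another 2 were in the stem table alone and 2 in the leaf table alone. The anion channel described as the guard cell type (*Sobic.006G186500*) was among those in the leaf table alone, at 12.05 ± 6.27 TPM.

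Water and nitrogen transport were divided by member. Of 17 aquaporin genes, 5 were higher in stems, 4 were lower and 8 did not pass, against 4 higher and 6 lower under median-of-ratios scaling. *Sobic.004G288700* averaged 1759.8 ± 390.1 TPM in stems and 239 ± 80.5 TPM in leaves and *Sobic.002G281000* 39.4 ± 11.04 TPM in stems and 913 ± 398 TPM in leaves. Of 96 genes of nitrogen transport and assimilation, 34 were higher in stems, 21 were lower and 41 did not pass (median 0.30). Under median-of-ratios scaling 27 were higher and 26 lower. Nitrate reductase (*Sobic.007G153900*), the first step of nitrate assimilation, lay between 20.8 and 215 TPM in stems (median 28.96), against 419.8 to 1329.5 TPM in leaves (median 603), a difference of -4.04 ± 0.29. A carrier of the nitrate and peptide family NRT1/PTR (*Sobic.009G099000*) lay the other way, with 222 ± 75.2 TPM in stems and 2.09 ± 1.48 TPM in leaves, and the amino acid transporter *Sobic.010G199200* averaged 980.3 ± 175 TPM in stems and 187 ± 64.2 TPM in leaves.

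Defence genes were more often lower than higher in stems. Of 72 genes of the dhurrin, jasmonate and defence list, 18 were higher in stems, 32 were lower and 22 did not pass (median -0.52), and 39 more were in the leaf table alone, against 24 in the stem table alone. A thaumatin (*Sobic.001G145700*) differed by -6.90 ± 0.22 and pathogenesis-related protein 1 (*Sobic.002G023300*) by -5.90 ± 0.31. Their means in stems were 1.02 and 1.05 TPM, against 271 and 159.5 TPM in leaves. In the flavonoid list 3 of 18 were higher and 4 lower. A flavonol 3-O-methyltransferase (*Sobic.007G047300*) and a flavonoid 3'-hydroxylase (*Sobic.005G115800*) averaged 1614 and 671 TPM in stems, against 18.5 and 11.2 TPM in leaves. Of 8 clock genes, 1 was higher and 4 were lower (median -0.73), with the morning factor *LHY* (*Sobic.007G047400*) at -1.05 ± 0.08 and *GIGANTEA* (*Sobic.003G040900*) at 0.81 ± 0.08, not called. At 10 d alone *LHY* was at -0.91 and not called, and *GIGANTEA* at 1.03 and called. The hour of sampling of each organ is not given in the sources used here.

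Of the cell death genes, 5 of 11 were higher in stems and none was lower. The nuclease *BFN1* homolog (*Sobic.003G087200*) lay between 80.4 and 319 TPM in stems (median 164), against 6.41 to 15.7 TPM in leaves (median 9.72). *SbNAC074A* (*Sobic.006G147400*), the gene of the *D* locus, was in the stem table alone at 14.3 ± 14.4 TPM, with single stems between 0.575 and 53.9 TPM. That mean pools both days, and pools *dd* stems, which carry the truncated gene, with *DD* stems, which carry the functional one. In the study's own group means for intact stems, the level was lower at 10 d than at 3 d in both genotypes. The type II metacaspase (*Sobic.004G187200*) and the *SCPL48* homolog (*Sobic.004G010000*) were also in the stem table alone, at 2.99 ± 2.66 TPM and 3.91 ± 3.49 TPM.

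Some of the widest differences fell outside the lists. An aminotransferase of class III (*Sobic.001G379000*) had 540.0 to 1239 TPM in stems (median 791), against 0.0261 to 7.87 TPM in leaves (median 1.504), the highest difference among described genes called (8.46 ± 0.24, adjusted p = 2.9e-22, limma). A copper-transport related protein (*Sobic.001G087400*) averaged 800.0 ± 183 TPM in stems and 2.25 ± 1.74 TPM in leaves and an F-box protein (*Sobic.003G378000*) 1221 ± 327 TPM in stems and 7.77 ± 4.62 TPM in leaves. On the leaf side, a 9-cis-epoxycarotenoid dioxygenase relative (*Sobic.004G268500*), of a family that cleaves carotenoids, had 1.301 to 14.4 TPM in stems (median 2.69), against 679 to 1905 TPM in leaves (median 1291). A plastid glycolate/glycerate translocator (*Sobic.001G283100*), which carries photorespiratory acids, averaged 2.22 ± 1.44 TPM in stems and 662 ± 159 TPM in leaves, and a catalase peroxidase (*Sobic.001G517700*) 2.12 ± 1.38 TPM in stems and 629 ± 112 TPM in leaves. All stems lay on one side of all leaves for each of these.

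The genes in 1 table alone carried 3.08% of the TPM in stems and 3.14% in leaves, and no fold difference can be given for them. Of the 2446 in the stem table, 644 averaged at least 10 TPM in intact stems and 45 at least 100 TPM; of the 1890 in the leaf table, 598 and 59 did so in intact leaves. A phosphate exporter PHO1 (*Sobic.004G339800*), of a family that loads phosphate into xylem, was in the stem table alone at 194.7 ± 69.1 TPM, and a solute carrier of family 13 (*Sobic.001G307700*) at 237 ± 96.2 TPM. In the leaf table alone were a glutathione S-transferase (*Sobic.003G187000*) at 396 ± 95.7 TPM, a thaumatin (*Sobic.008G182900*) at 328 ± 254 TPM, a glucan endo-1,3-beta-glucosidase (*Sobic.003G422000*) at 316 ± 112 TPM and a chitinase (*Sobic.010G240400*) at 268 ± 247 TPM. The thaumatin, the glucosidase and the chitinase belong to families induced in defence.

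Whether the organ difference changed between 3 and 10 d was tested as (stem minus leaf at 10 d) minus (stem minus leaf at 3 d). Of 14496 genes, 287 (1.98%) passed, 43 (0.297%) upwards and 244 (1.68%) downwards. This count rested on single libraries and on the scaling: leaving out single libraries gave 123 to 555 genes, the lowest without *DD* 10 d leaf replicate 4 and the highest without *dd* 3 d leaf replicate 4. Median-of-ratios scaling gave 75 upwards and 62 downwards, and *DD* plants alone 9 genes. In *dd* plants alone limma called 0, with 3230 genes at an unadjusted p under 0.05, where fewer samples enter. An epimerase-family gene (*Sobic.007G141200*) had 389 and 532 TPM at 3 d and 162 and 112 TPM at 10 d in *dd* and *DD* stems, against 0.959 and 2.43 TPM at 3 d and 1.74 and 6.14 TPM at 10 d in *dd* and *DD* leaves (-2.58 ± 0.29, adjusted p = 5.1e-05, limma). Both genotypes had a lower mean at 10 d than at 3 d in stems. A gene described as F3H7.17 protein (*Sobic.006G190100*) had 51.9 and 66.4 TPM at 3 d and 13.4 and 12.2 TPM at 10 d in *dd* and *DD* stems, against 0.747 and 0.975 TPM at 3 d and 2.14 and 2.15 TPM at 10 d in *dd* and *DD* leaves (-2.76 ± 0.49, adjusted p = 0.0018). A transporter (*Sobic.005G037300*) went upwards, with 32.7 and 38.4 TPM at 3 d and 75.9 and 113 TPM at 10 d in *dd* and *DD* stems, against 22.1 and 12.5 TPM at 3 d and 0.479 and 1.10 TPM at 10 d in *dd* and *DD* leaves (3.94 ± 0.92, adjusted p = 0.006). Its call was lost when any of 9 of the 27 libraries was left out, namely *dd* 3 d stem replicate 4, *dd* 10 d stem replicate 2, *DD* 10 d stem replicates 2 and 3, *dd* and *DD* 3 d leaf replicate 3, *dd* 10 d leaf replicate 4 and *DD* 10 d leaf replicates 1 and 4. None of the 3 passed in *dd* plants alone, and of them the epimerase-family gene alone passed in *DD* plants alone. With stem and leaf samples of the same replicate number treated as a block, 2 genes passed and these 3 did not.

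Few genes passed the threshold for an organ difference that depended on genotype. The test of (stem minus leaf in *dd*) minus (stem minus leaf in *DD*) gave 13 genes (0.0897%), 6 upwards (0.0414%) and 7 downwards (0.0483%). By limma 3035 genes had an unadjusted p under 0.05, so a gene that did not pass may still differ. *SbXCP1* (*Sobic.007G172100*), a cysteine protease of a family active in dying xylem cells, averaged 0.130 and 51.9 TPM at 3 d and 0.150 and 12.003 TPM at 10 d in *dd* and *DD* stems, against 3.55 and 0.224 TPM at 3 d and 2.00 and 2.83 TPM at 10 d in *dd* and *DD* leaves (-4.70 ± 0.74, adjusted p = 0.0034, limma). The *DD* stems held the highest group means, and at 10 d 1 of the 3 *DD* stems carried most of the level. A hydrophobic seed protein gene (*Sobic.005G046700*) had the same order, with 0.143 and 121 TPM at 3 d and 0.328 and 25.8 TPM at 10 d in *dd* and *DD* stems, against 5.44 and 8.15 TPM at 3 d and 12.8 and 4.31 TPM at 10 d in *dd* and *DD* leaves (-5.77 ± 0.83, adjusted p = 0.0018). A BURP-domain gene (*Sobic.009G197300*) differed mainly in leaves, with 4930.1 and 2894 TPM at 3 d and 2005 and 1948 TPM at 10 d in *dd* and *DD* stems, against 0.275 and 45.98 TPM at 3 d and 3.72 and 22.6 TPM at 10 d in *dd* and *DD* leaves (4.43 ± 0.67, adjusted p = 0.0024). The galactosyltransferase *Sobic.006G122400*, described as raffinose synthase, went opposite ways in the 2 organs: 111 and 54.9 TPM at 3 d and 136 and 59.4 TPM at 10 d in *dd* and *DD* stems, against 19.2 and 48.4 TPM at 3 d and 23.2 and 42.3 TPM at 10 d in *dd* and *DD* leaves (2.15 ± 0.14, adjusted p = 4.0e-09). Leaving out single libraries gave 7 to 13 genes, and without the *dd* 10 d stem libraries 3 and 4 there were 6. *SbXCP1* (-4.72) and the BURP-domain gene (4.16) were then no longer called. At 10 d alone these 2 (-2.81 and 3.10) and the hydrophobic seed protein gene (-4.92) were not called either, nor was the last at 3 d alone (-6.62). *SbXCP1* also lost its call without *DD* 3 d leaf replicate 3, *dd* 10 d leaf replicate 4 or *DD* 10 d leaf replicate 2. With samples of the same replicate number treated as a block, 1 gene passed. Among the genes named here, *Sobic.006G122400* alone kept its call under the block.

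**Figure D5:**
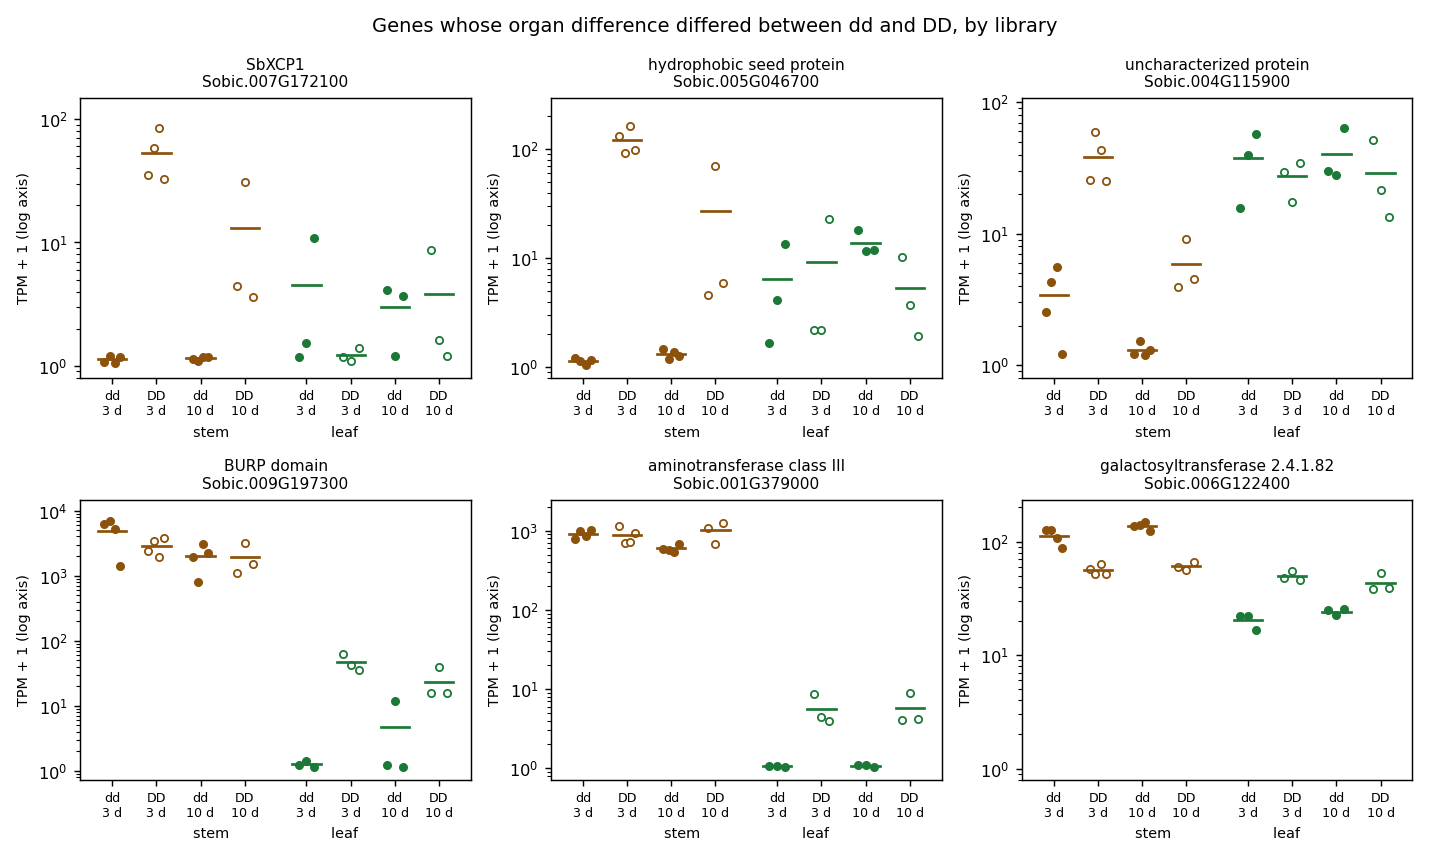
TPM + 1 on a log axis for 6 genes whose organ difference differed between *dd* and *DD*, in each stem (brown, left) and leaf (green, right) library, with filled circles for *dd*, open circles for *DD* and bars for group means. *SbXCP1* and the hydrophobic seed protein gene are near 0 TPM in all *dd* stems, the BURP-domain and aminotransferase genes are lower in *dd* than in *DD* leaves, and *Sobic.006G122400* is higher in *dd* stems and lower in *dd* leaves than in the *DD* counterparts.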

How the data were processed

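RNA was sequenced from 32 intact samples, of which 27 have a TPM column. Per the labels, the authors' notes name FastQC, Trimmomatic, STAR and DESeq2, without versions; the authors deposited TPM, and a gene is kept where 2 or more libraries of that organ exceed 3 TPM, checked on the files. They also deposited their own comparisons, clusters and overlaps, which were not used. Columns were matched to samples by title, and 26 samples with the head removed were left out.

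On log2(TPM + 1), limma 3.58.1 in R 4.3.3 (lmFit, eBayes with a trend) fitted organ, genotype and day on all 27 samples, a method tested on simulated data. The interactions came from 1 mean per group. P-values were adjusted across the 14496 genes by Benjamini-Hochberg, with calls under 0.01 at a difference of at least 1. The 2 tables were scaled separately, each library to its own total, and the comparison across them assumes that TPM are comparable. The labels call the replicates biological replicates. They do not say whether these are separate plants, so p-values measure the spread between these samples.

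The 30 lists came from patterns on the deposited descriptions, and entries whose description showed another function were removed. Members and lists were chosen with earlier results of these data known. Named genes are the 10 highest and 10 lowest called genes with a description, up to 3 called members in each direction and the 2 most abundant of each list, the genes the study names, the 10 most abundant of each table alone and the 5 largest of each interaction. Genes named outside this rule, with the members of the SWEET, SUT and malic enzyme families and the stomatal anion channel, were chosen after their values were seen. Alternatives were other pseudocounts, filters, scalings, variance and group models, a replicate block, single genotypes and days, and leaving out samples.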

Additional observations from a re-analysis of the deposited data

Results flagged for a closer look

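In 90 sums of a list over a group of 4 stems, 5 held a library set apart from the other 3 by most of the group's range (Dixon's test), where chance alone sets apart about 1 in 20 groups. *DD* 3 d stem replicate 1 had the highest sum of the cell cycle and core histone genes (8198.1 TPM, against 7219.7 to 7253.1 TPM in the other 3) and of the dhurrin, jasmonate and defence genes (4560.0 TPM, against 3638.7 to 3736.4 TPM), and the lowest of the homeobox genes (2551.1 TPM, against 2732.7 to 2768.0 TPM). *DD* 3 d stem replicate 2 had the lowest sum of the gibberellin, cytokinin and brassinosteroid genes (1253.7 TPM, against 1376.0 to 1392.4 TPM). *dd* 10 d stem replicate 3 had the highest sum of the mitochondrial respiration genes (17673.7 TPM, against 14982.3 to 15368.0 TPM).

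The organ difference itself differed between days by limma's interaction test, on the log2(TPM + 1) scale, in the transporter *Sobic.005G037300* (3.94), *Sobic.006G190100* (-2.76), the epimerase-family gene *Sobic.007G141200* (-2.58), a serine carboxypeptidase (*Sobic.002G121300*, -2.47) and a shikimate kinase family gene (*Sobic.006G235500*, -2.38). For the carboxypeptidase the group means were 116 and 131 TPM at 3 d and 107 and 89.1 TPM at 10 d in *dd* and *DD* stems, against 82.4 and 25.9 TPM at 3 d and 213 and 186 TPM at 10 d in *dd* and *DD* leaves, so that leaf means were higher at 10 d than at 3 d in both genotypes. For the shikimate kinase gene they were 67.3 and 165 TPM at 3 d and 29.4 and 11.1 TPM at 10 d in *dd* and *DD* stems, against 5.24 and 5.53 TPM at 3 d and 4.46 and 5.01 TPM at 10 d in *dd* and *DD* leaves.

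Between genotypes, the organ difference differed in the BURP-domain gene *Sobic.009G197300* (4.43), *SbXCP1* (*Sobic.007G172100*, -4.70), the hydrophobic seed protein gene *Sobic.005G046700* (-5.77), an uncharacterised gene (*Sobic.004G115900*, -3.32) and the raffinose synthase *Sobic.006G122400* (2.15). The uncharacterised gene had 2.41 and 37.5 TPM at 3 d and 0.306 and 4.88 TPM at 10 d in *dd* and *DD* stems, against 36.5 and 26.3 TPM at 3 d and 39.4 and 27.8 TPM at 10 d in *dd* and *DD* leaves. Its call was lost without *dd* 3 d leaf replicate 3 or 4, *DD* 3 d leaf replicate 3, *dd* 10 d leaf replicate 4 or *DD* 10 d leaf replicate 2, and without the *dd* 10 d stem libraries 3 and 4 (-3.29).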

How the results depend on the processing

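The count of 5901 genes between stem and leaf stayed within 1.5 times under the other pseudocounts, a mean of at least 10 TPM, both variance models, 1 mean per group, single genotypes and days and both rescalings, except that median-of-ratios scaling left 2259 higher. A limit of 2 on the log2 scale gave 2311 genes (1070 higher, 1241 lower), no limit 11727 (8022 higher, 3705 lower), and setting genes missing from a table to 0 gave 10070 (6040 higher, 4030 lower). Leaving out single libraries gave 5812 to 5982 genes (3571 to 3758 higher, 2221 to 2260 lower). Of 235 named genes with a value in both tables, 220 kept their call and direction under median-of-ratios scaling, 10 lost it, 2 gained it and 3 uncalled ones changed sign. *Sobic.005G046700* was at -2.67 in *dd* plants alone, against 0.22, not called, in all.

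The organ by day count of 287 (43 up, 244 down) became 462 (109 up) at an adjusted p under 0.05, 14 (1 up, 13 down) at a limit of 2, 1182 (101 up, 1081 down) without a limit, 164 (130 down) with a pseudocount of 3, 465 (96 up, 369 down) with missing genes at 0, 137 (75 up, 62 down) under median-of-ratios scaling, 138 (73 up, 65 down) under quantile normalization, 9 (3 up, 6 down) in *DD* alone and 0 (0 up, 0 down) in *dd* alone by limma, where 3230 genes had an unadjusted p under 0.05. Without *dd* 10 d stem libraries 3 and 4, 129 were up. Leaving out single libraries gave 123 to 555 (17 to 71 up, 106 to 484 down). Those moving the total by over 1.5 times were *DD* 10 d stem replicate 3 (187), *dd* 3 d leaf replicates 1 (168), 3 (136) and 4 (555), *DD* 3 d leaf replicate 3 (126), *dd* 10 d leaf replicate 4 (167) and *DD* 10 d leaf replicates 1 (161), 2 (528) and 4 (123).

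The organ by genotype count of 13 (6 up, 7 down) became 22 (13 up) at an adjusted p under 0.05, 7 (3 down) at a limit of 2, 7 (2 up) with a pseudocount of 3, 39 (14 up, 25 down) with missing genes at 0, 7 (2 down) at 3 d alone and 1 (1 up, 0 down) at 10 d alone by limma, where 1393 genes had an unadjusted p under 0.05. Without *dd* 10 d stem libraries 3 and 4 it was 6 (3 up, 3 down). Leaving out single libraries gave 7 to 13 (4 to 6 up, 3 to 8 down), with 8 without *dd* 3 d leaf replicate 3 or 4, and 7 without *DD* 3 d leaf replicate 3, *dd* 10 d leaf replicate 4 or *DD* 10 d leaf replicate 2. For these changes the cause was not tested, beyond the smaller number of samples in single genotypes or days.

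Stem and leaf samples share replicate numbers. Over 11 pairs of the same number the correlation of their deviations ran between -0.05 and 0.29, above 0.1 in 4. Because each deviation is taken from the mean of few samples, these values cannot settle whether the numbers pair the samples. Pairing was not used in the main fit. With each number as a replicate block, 3732 genes were higher and 2217 lower between the organs, 2 genes (1 up, 1 down) passed by day and 1 (1 up, 0 down) by genotype, with 2533 at an unadjusted p under 0.05. Under the block all 5 named genes by day and 4 of the 5 by genotype, all but *Sobic.006G122400*, were no longer called. TPM keep no depth, so small values carry no counting interval.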

Other observations

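Of the 13 genes that passed the test of organ by genotype, 6 have identifiers on chromosome 6, on which 1271 of the 14496 genes tested lie (8.77%). The *D* locus gene *SbNAC074A* (*Sobic.006G147400*) also has a chromosome 6 identifier. This count was noticed after the genes were seen, and its cause was not tested.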
